A study of Homo sapiens with 8 samples.

Results

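The MYC-MAX-MXD network was examined in SUIT2, a human pancreatic ductal adenocarcinoma (PDA) cell line, through its 10 members MYC, MYCL, MAX, MXD1, MXD3, MXD4, MXI1, MNT, MGA and MLX. Members were found by matching these symbols to the NCBI gene numbers in the count files, and all 10 of the 25702 listed genes were found and carried enough counts to be tested. RNA-seq covered 4 libraries labelled shScr, from cells with a scrambled short hairpin RNA, 2 labelled shEN1 #1 and 2 labelled shEN1 #2, from cells with either of 2 hairpins against EN1, a homeodomain transcription factor of brain development. The study asked which genes follow EN1 in PDA cells. The labels list no other agent, allele or time, and nothing in them says that same-labelled libraries came from separate cultures, so the p-values below measure only the spread between these libraries.

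Members of this network are basic helix-loop-helix leucine zipper proteins that bind E-box DNA as pairs. MYC and MYCL pair with MAX to activate growth genes, whereas the MXD proteins, MXI1, MNT and MGA pair with the same MAX and repress, the MXD proteins by bringing in SIN3 and histone deacetylases. MXD proteins are best known from differentiating and resting cells, and MYC from proliferating tumors, pancreatic cancer included.

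Before any contrast, the targeted gene was read in every library. EN1 lay at 4.10, 4.50, 4.93 and 2.51 CPM (read counts scaled to a common library size, here with TMM factors) in shScr replicates 1 to 4. Its level was 5.77 and 5.41 CPM in shEN1 #1 replicates 1 and 2, and 1.35 and 6.70 CPM in shEN1 #2 replicates 1 and 2. Only 1 of the 4 libraries labelled shEN1 was therefore below all those labelled shScr, and EN1 was not lower in the shEN1 label (log2 fold change 0.26 ± 0.43 SE, edgeR adjusted p = 1.00), so groups are named here as "labelled". Library totals ran from 33423590 to 37810604 counts. A pair of libraries, labelled shEN1 #2 replicate 1 and shScr replicate 4, stood apart from the other 6 on the first principal component (44.4% of the variance, 62.1 and 59.2 against -27.6 to -9.15). EN1 was lowest there too, with 4.10 to 6.70 CPM in the other 6 and 1.35 and 2.51 CPM in this pair, 1 library of each label. These 2 also had the lowest levels of the epithelial genes EPCAM (241 and 234 CPM, others 366 to 589) and KRT19 (321 and 400.1 CPM, others 831 to 1648) and of CDH1, while KRT8 (6364 and 6484 CPM, others 6091 to 9569) and KRT18 (4217 and 4253 CPM, others 3584 to 5626) lay within the range of the others. Of the markers of other cells, 4 of 6 fibroblast, 2 of 4 endothelial, 2 of 5 leukocyte and 2 of 4 acinar markers were at 0 in every library, and the 5 epithelial markers summed to 11110 to 17620 CPM. The leukocyte list summed to 8.68 to 36.3 CPM, most of it CD68, a lysosomal macrophage marker, at 7.75 to 34.6 CPM and lowest in the same 2 libraries (7.75 and 8.38 CPM). Its part in the results was not tested.

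The members differed mainly in how much they varied between libraries. MXD4 and MYCL varied widely and MAX hardly at all, and the shScr and shEN1 labels overlapped in every member. In no member did the 4 libraries labelled shEN1 lie wholly above or below the 4 labelled shScr, where 0.419% of all 14333 tested genes did. Between the pooled labels 3 members had a higher and 7 a lower mean, and 0 of 10 passed edgeR's quasi-likelihood test at an adjusted p below 0.05, a call made for 0% of all tested genes. Of all tested genes, 48.88% were higher in the shEN1 label. Without adjustment, 0 members and 0.307% of genes had a p below 0.05. DESeq2 and limma-voom also called 0 members, and DESeq2 called 2 genes in all, 0.014% of those it tested. In a bulk sample, fewer cells carrying a transcript and less transcript per cell cannot be told apart.

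**Figure D1:**
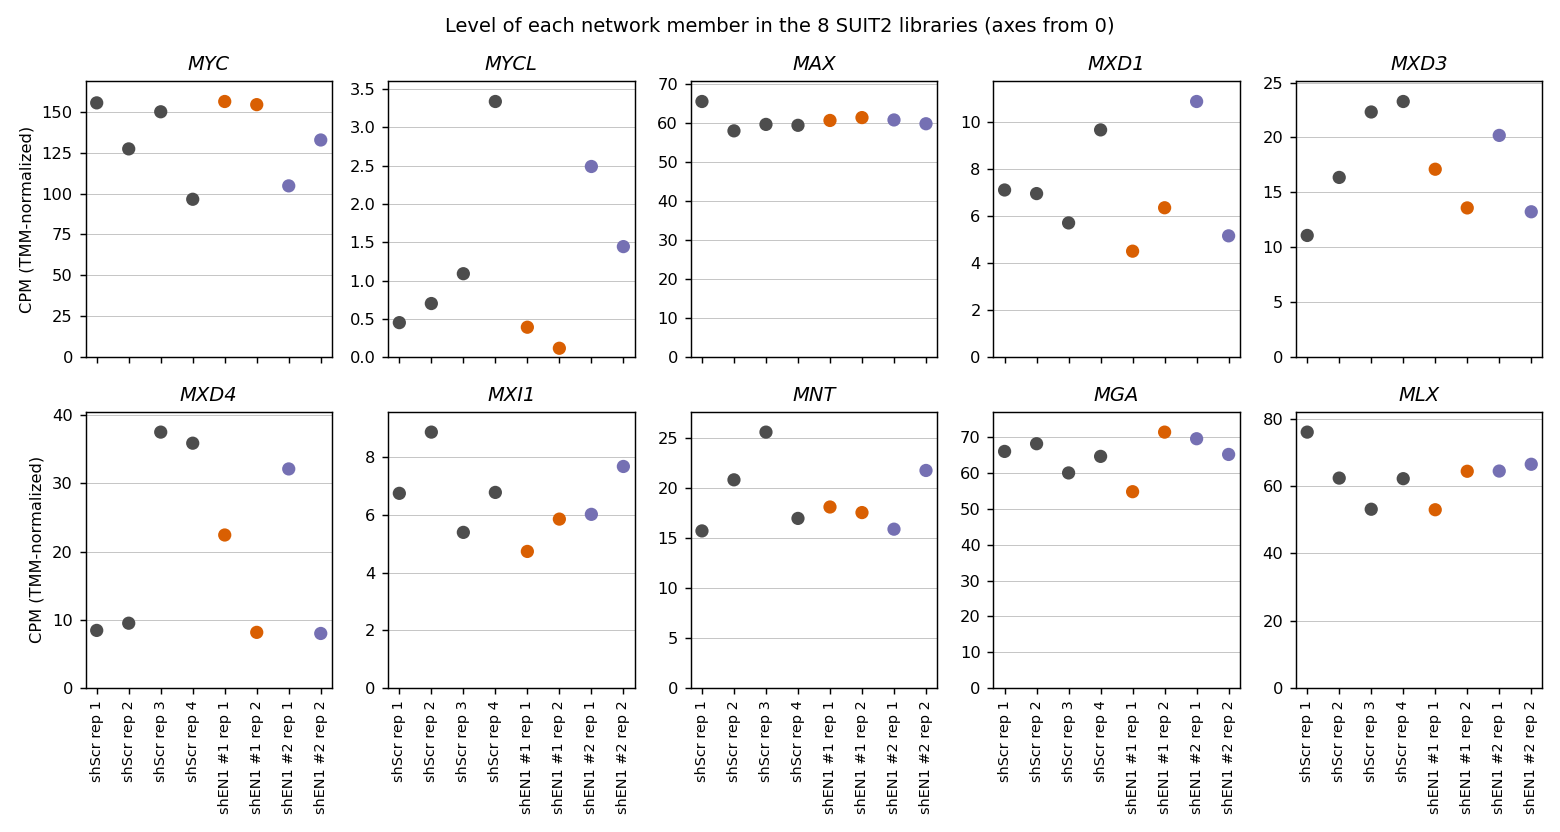
Level of each member in every library, in TMM-normalized CPM on axes that start at 0, with 1 point per library and the colors marking shScr (gray), shEN1 #1 (orange) and shEN1 #2 (purple). MAX lies flat between 58.1 and 65.6 CPM, while MXD4 splits into 4 libraries at 7.99 to 9.49 CPM and 4 at 22.4 to 37.5 CPM, with both labels on either side.

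The activating partners were described first. MYC (NCBI gene 4609, chr8:128747680-128755197 on the plus strand, hg19) encodes the proto-oncoprotein at the head of the network. It was at 155.4, 127.3, 149.9 and 96.5 CPM in shScr replicates 1 to 4, at 156.2 and 154.3 CPM in shEN1 #1 replicates 1 and 2, and at 104.7 and 132.7 CPM in shEN1 #2 replicates 1 and 2. MYC was thus lowest in the 2 libraries that stood apart, 1 of each label, and the labels overlapped over nearly the whole range. The shScr mean was 132 ± 26.8 CPM and the shEN1 mean 137 ± 24.0 CPM (SD, n = 4 each), which gave a log2 fold change of 0.050 ± 0.18 (SE; edgeR adjusted p = 1.00). Without the 2 libraries that stood apart, MYC kept to 127 to 156 CPM. The TMM factors of those 2 libraries were also the highest, 1.06 and 1.07 against 0.962 to 1.00, but MYC was lowest in them by library size alone as well, at 103 and 112 CPM against 125 or more elsewhere.

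MYCL (NCBI gene 4610, chr1:40361100-40367928, minus strand, hg19), the paralog first known from small cell lung cancer, had few counts, and it overlaps an antisense gene whose reads may be mixed with its own. In shScr replicates 1 to 4 it was at 0.452, 0.701, 1.09 and 3.34 CPM, from 15, 26, 38 and 125 counts. In shEN1 #1 replicates 1 and 2 it was at 0.392 and 0.118 CPM, from 14 and 4 counts, and in shEN1 #2 replicates 1 and 2 at 2.49 and 1.44 CPM, from 98 and 47 counts. Its highest values were in the 2 libraries where MYC was lowest. The 95% Poisson interval ran from 0.0321 to 0.301 CPM in shEN1 #1 replicate 2 and from 2.78 to 3.97 CPM in shScr replicate 4, covering counting error only, since reads without molecular identifiers are not independent molecules. MYCL was the only member with an unadjusted p below 0.05 in any contrast: -2.43 ± 0.94 (log2, SE) for shEN1 #1 against shScr, with an unadjusted p of 0.0280 and an edgeR adjusted p of 1.00. Its standard deviation of log2 CPM over the 8 libraries, 1.41, exceeded that of 98.7% of tested genes, and its pooled fold change was -0.33 ± 0.87 (SE).

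MAX, the common partner of MYC, MXD, MNT and MGA proteins, was the steadiest member. MAX (NCBI gene 4149, chr14:65472892-65569413, minus strand, hg19) was at 65.6, 58.1, 59.7 and 59.5 CPM in shScr replicates 1 to 4, at 60.7 and 61.5 CPM in shEN1 #1 replicates 1 and 2, and at 60.9 and 59.9 CPM in shEN1 #2 replicates 1 and 2. Its standard deviation of log2 CPM, 0.052, was larger than that of only 0.202% of tested genes. The shScr mean was 60.7 ± 3.33 CPM and the shEN1 mean 60.7 ± 0.651 CPM (SD, n = 4 each). In the 2 libraries that stood apart MAX lay inside the range of the other 6. FNTB, whose exons overlap those of MAX on the other strand, ranged from 31.3 to 45.3 CPM. MLX, the MAX-like protein that pairs with MXD1, MXD4 and MNT as well as with glucose-sensing activators, had a standard deviation of 0.17, larger than in 23.1% of tested genes (NCBI gene 6945, chr17:40719090-40725257, plus strand, hg19). It was at 76.0, 62.4, 53.1 and 62.2 CPM in shScr replicates 1 to 4, at 53.0 and 64.4 CPM in shEN1 #1 replicates 1 and 2, and at 64.4 and 66.5 CPM in shEN1 #2 replicates 1 and 2. MLX was lowest in shScr replicate 3 and shEN1 #1 replicate 1, both of them libraries with high MXD4, and PSMC3IP, which overlaps it on the other strand, ranged only from 6.15 to 7.53 CPM.

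MXD4 was the member with the clearest split. It encodes an MXD repressor, NCBI gene 10608, at chr4:2249159-2263836 on the minus strand of hg19. The MXD4 level was 8.43, 9.49, 37.5 and 35.9 CPM in shScr replicates 1 to 4, from 280, 352, 1308 and 1345 counts. In shEN1 #1 it was 22.4 and 8.15 CPM in replicates 1 and 2, from 801 and 277 counts, and in shEN1 #2 it was 32.1 and 7.99 CPM, from 1265 and 260 counts. High values thus came from shScr replicates 3 and 4 and the replicate 1 of each hairpin, and low values from the other 4 libraries, so each label held both. Counting error was far smaller than the gap: the 95% Poisson interval of shScr replicate 2, the highest of the low libraries, was 8.52 to 10.5 CPM, and that of shEN1 #1 replicate 1, the lowest of the high libraries, was 20.9 to 24.0 CPM. The highest value was 4.70 times the lowest, both in libraries outside the pair that stood apart, and the standard deviation of log2 CPM, 1.03, exceeded that of 95.3% of tested genes. The shScr mean of 22.8 ± 16.0 CPM and the shEN1 mean of 17.7 ± 11.8 CPM (SD, n = 4 each) gave a log2 fold change of -0.37 ± 0.62 (SE; unadjusted p = 0.567, edgeR adjusted p = 1.00). That value moved from -0.82 without shEN1 #2 replicate 1 to -0.021 without shScr replicate 3.

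MXD3, a relative of MXD4 that is best known from proliferating cells in S phase, had its 4 highest values in the same 4 libraries as MXD4. How many of all tested genes split the libraries in this way was not counted. The shared split is thus not shown to be particular to these 2 genes. MXD3 (NCBI gene 83463, chr5:176728462-176739758, minus strand, hg19) was at 11.1, 16.4, 22.3 and 23.3 CPM in shScr replicates 1 to 4, at 17.1 and 13.6 CPM in shEN1 #1 replicates 1 and 2, and at 20.2 and 13.2 CPM in shEN1 #2 replicates 1 and 2. The step was small at its edge, 17.1 CPM in shEN1 #1 replicate 1 against 16.4 CPM in shScr replicate 2, from 611 and 607 counts. Counting error alone could change the order of these 2 libraries. MXD3 spanned 2.1-fold in all. Its pooled fold change was -0.19 ± 0.24 (log2, SE; edgeR adjusted p = 1.00). Exons of MXD3 overlap those of RAB24 on the same strand and of PRELID1 on the other, so reads may have been split between them. RAB24 ranged only from 14.0 to 20.5 CPM and PRELID1 from 83.8 to 172.7 CPM, and the part of the overlap in the MXD3 values was not tested.

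MXD4 and MXD3 promoters are shown because these repressors had their highest levels in the same libraries, and the other sequences because their E-box is the letters that MAX pairs bind. All are RefSeq sequence of GRCh38.p14, written 5′ to 3′ on the gene's strand. Each promoter runs from 250 bases before to 50 bases after the annotated start. MXD4 lies at chr4:2262060-2262359 (minus strand), with the E-box CACGTG in capitals. For MXD3, at chr5:177312703-177313002 (minus strand), capitals mark CGCGTG, the reverse complement of the variant E-box CACGCG. The short sequences are the 30 bases around CACGTG in the promoters of MNT, chr17:2401011-2401310 (minus strand), and MLX, chr17:42566850-42567149 (plus strand).
MXD4: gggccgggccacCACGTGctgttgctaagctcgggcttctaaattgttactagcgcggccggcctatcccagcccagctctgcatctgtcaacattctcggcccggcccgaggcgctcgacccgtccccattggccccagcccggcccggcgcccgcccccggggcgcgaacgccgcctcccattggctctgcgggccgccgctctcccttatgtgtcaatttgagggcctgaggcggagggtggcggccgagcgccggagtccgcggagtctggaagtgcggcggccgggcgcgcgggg
MXD3: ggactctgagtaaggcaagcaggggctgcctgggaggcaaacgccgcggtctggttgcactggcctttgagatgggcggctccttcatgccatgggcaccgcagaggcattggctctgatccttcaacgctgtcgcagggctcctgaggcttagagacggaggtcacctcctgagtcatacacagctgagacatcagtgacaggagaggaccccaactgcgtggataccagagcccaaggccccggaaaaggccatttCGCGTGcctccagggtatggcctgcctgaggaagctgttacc
MNT: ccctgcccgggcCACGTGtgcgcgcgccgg
MLX: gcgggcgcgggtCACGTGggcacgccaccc

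Promoters were matched for 9 members, 14 windows in all. MYC had no window in the promoter set, so it was not searched. The palindrome CACGTG was found in 3 members, in 1 window each, -238 bases from the start in MXD4, -193 in MNT and -50 in MLX, while 7.256% of 35116 RefSeq promoters of that length hold it. CACGCG on either strand was found in 3 others, MXD3, MXI1 and MGA, in 1 window each, against 11.43% of promoters. MXI1 and MGA also had windows without it. TAATTA, the core recognized by many homeodomain proteins, read on both strands, was found in 1 of the 14 windows, of MGA, against 4.838% of all promoters. The 3 members with CACGTG did not share a profile: MXD4 spanned 4.70-fold, MNT 1.63-fold and MLX 1.44-fold over the libraries.

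The remaining MXD proteins did not share the MXD4 split. MXD1 (NCBI gene 4084, chr2:70124820-70170077, plus strand, hg19), the founding MXD repressor, was at 7.11, 6.96, 5.71 and 9.66 CPM in shScr replicates 1 to 4, at 4.51 and 6.35 CPM in shEN1 #1 replicates 1 and 2, and at 10.9 and 5.16 CPM in shEN1 #2 replicates 1 and 2. It was highest in the 2 libraries that stood apart and had MYC at its lowest, and it was low in the other 2 libraries with high MXD4. SNRNP27, which shares exon bases with MXD1 on the same strand, was also highest in that pair, at 39.9 and 38.9 CPM against 23.1 to 32.5 CPM, and its part in the MXD1 values was not tested. The fold change of MXD1 was -0.13 ± 0.29 (log2, SE). MXI1 (NCBI gene 4601, chr10:111967363-112047123, plus strand, hg19), also called MXD2, was at 6.75, 8.87, 5.39 and 6.78 CPM in shScr replicates 1 to 4, at 4.73 and 5.85 CPM in shEN1 #1 replicates 1 and 2, and at 6.02 and 7.68 CPM in shEN1 #2 replicates 1 and 2. Its 2 lowest values were in shEN1 #1 replicate 1 and shScr replicate 3, both with high MXD4, and its fold change was -0.20 ± 0.22 (log2, SE).

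MNT and MGA, the larger repressors of the network, spread less than MXD4. MNT (NCBI gene 4335, chr17:2287367-2304398, minus strand, hg19), a broadly expressed counterweight to MYC, was at 15.7, 20.8, 25.6 and 17.0 CPM in shScr replicates 1 to 4, at 18.1 and 17.6 CPM in shEN1 #1 replicates 1 and 2, and at 15.9 and 21.8 CPM in shEN1 #2 replicates 1 and 2. Its high and low libraries mixed the labels, with a fold change of -0.11 ± 0.18 (log2, SE). MGA (NCBI gene 23269, chr15:41913332-42065279, plus strand, hg19) joins MAX to a variant polycomb repressor complex and also carries a T-box. It was at 66.1, 68.2, 60.1 and 64.7 CPM in shScr replicates 1 to 4, at 54.8 and 71.5 CPM in shEN1 #1 replicates 1 and 2, and at 69.6 and 65.2 CPM in shEN1 #2 replicates 1 and 2. The lowest and the highest MGA level were thus both in shEN1 #1. Its standard deviation of log2 CPM, 0.12, exceeded that of only 8.83% of tested genes, and its fold change was 0.012 ± 0.11 (log2, SE).

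**Figure D2:**
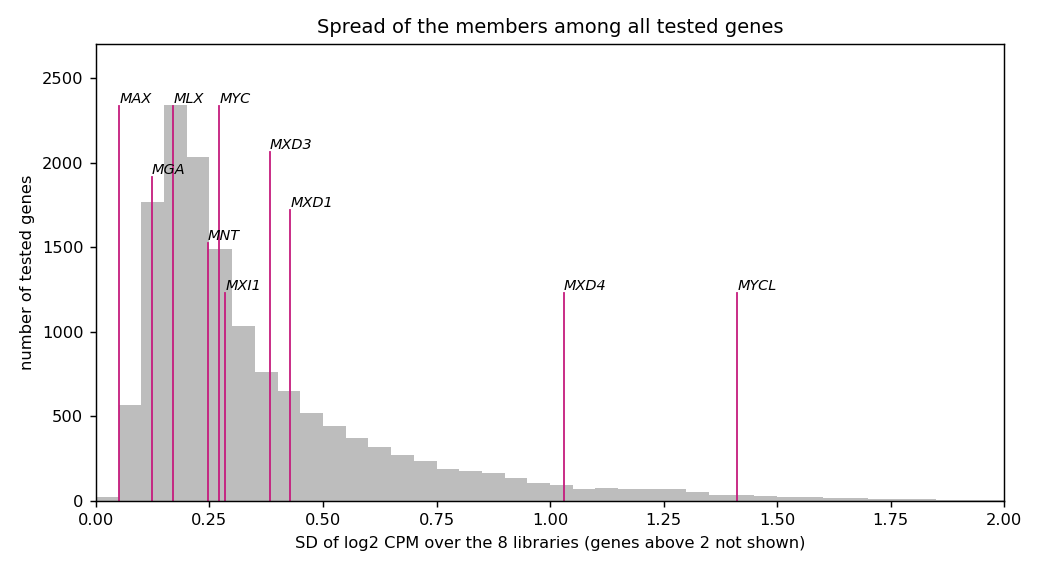
Number of tested genes by the standard deviation of their log2 CPM over the 8 libraries, with a line for each member (15 of 14333 genes above 2 are not shown). MAX (0.052) sits at the left edge, MYC (0.27) near the median of all genes (0.263), and MXD4 (1.03) and MYCL (1.41) far to the right.

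Over all 10 members, 6 had a larger standard deviation than the median tested gene. To compare levels between genes, CPM was divided by the length of the canonical transcript in kilobases. On this scale the median over libraries was 38 for MYC, 30.0 for MAX, 26.9 for MLX and 15.7 for MXD3. It was 5.38 for MGA, 4.12 for MXD4, 3.62 for MNT, 1.84 for MXI1, 1.2 for MXD1 and 0.254 for MYCL. Ranges of neighbors in this order overlapped for MYC (25.9 to 42.0) and MAX (28.9 to 32.6), for MAX and MLX (22.4 to 32.2), for MGA (4.50 to 5.86) and MXD4 (2.06 to 9.69), for MXD4 and MNT (3.19 to 5.20), for MXI1 (1.36 to 2.56) and MXD1 (0.812 to 1.96), and for MXD1 and MYCL (0.0334 to 0.947). With the bases of all annotated exons as the length, MLX (14.9) came before MAX (9.64), so the order of those 2 rests on the transcript model. By that length MXD3 was at 3.53 (range 2.34 to 4.91), next to MGA at 3.27 (2.73 to 3.56). The lead of MXD3 over MGA thus rests on the transcript model too.

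MXD4 was next set against MYC. The libraries fell into separate clusters, so no correlation across them was computed, and a relation could not be tested. MXD4 counts per 100 MYC counts, a ratio that needs no scaling between libraries, were 5.43, 7.46, 25.0 and 37.2 in shScr replicates 1 to 4. The ratio was 14.4 and 5.28 in shEN1 #1 replicates 1 and 2, and 30.7 and 6.02 in shEN1 #2 replicates 1 and 2. Its high and low libraries were those of MXD4 itself. The 4 libraries with high MXD4 split over MYC: shScr replicate 4 and shEN1 #2 replicate 1 held the lowest MYC, 96.5 and 104.7 CPM, whereas shScr replicate 3 and shEN1 #1 replicate 1 held 149.9 and 156.2 CPM, close to the 155.4 CPM of shScr replicate 1, where MXD4 was low. Of the 4 highest MXD4 values, 2 thus came with the 2 lowest MYC values, in the libraries that stood apart, and 2 did not. The other 2 libraries with high MXD4, shScr replicate 3 and shEN1 #1 replicate 1, lay at one end of the second principal component (17.5% of the variance, -39.3 and -30.6 against 2.07 to 29.4). The 4 highest MXD4 values were thus in this pair and the pair that stood apart on the first component, and the part of these differences over many genes in the MXD4 values was not tested.

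**Figure D3:**
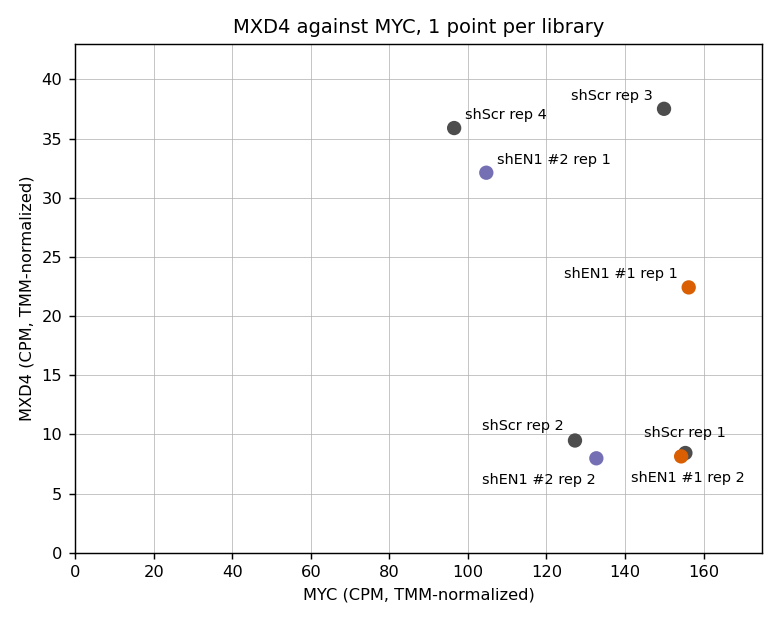
MXD4 against MYC, both in TMM-normalized CPM on axes that start at 0, with 1 labeled point per library (gray shScr, orange shEN1 #1, purple shEN1 #2). At an MXD4 level of 22.4 CPM or more, MYC takes both its lowest (96.5 CPM) and its highest value (156.2 CPM).

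Likeness of profiles was measured as the root mean square difference between log2 CPM values after subtracting each gene's own mean over the 8 libraries, where 0 is the same profile. MXD4's own profile had a root mean square of 0.964 on this scale. Among members MXD3 was nearest to MXD4, at 0.649, and only 2.735% of tested genes were nearer. MXD1 followed at 0.906, with 25.47% of genes nearer. MYC was at 1.11 from MXD4 and at 0.874 from its mirror image, for which 18.35% of genes were nearer. That place was not particular to MYC. MXI1 was nearer to the mirror image of MXD4, at 0.858 (15.26% of genes nearer), and MLX was about level with MYC, at 0.875 (18.71%). These are descriptions of 8 libraries, in which a gene with a flat profile such as MAX lies at about the root mean square of MXD4 itself (0.980).

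**Figure D4:**
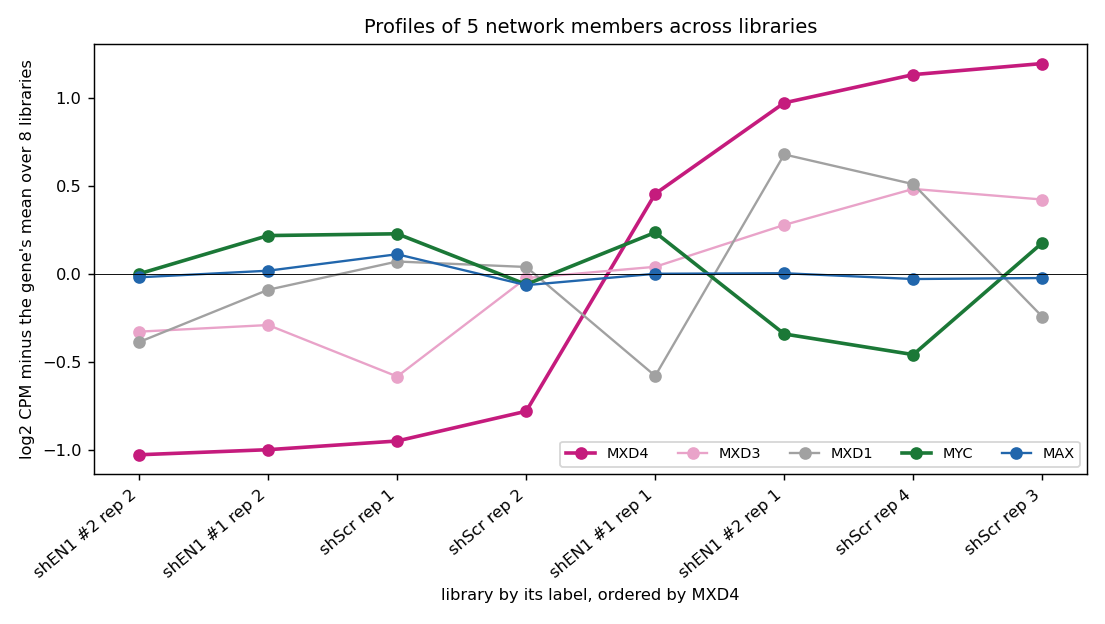
Log2 CPM of 5 members minus each gene's mean over the 8 libraries, with the libraries ordered by MXD4 and 1 point per library. MXD3 is below its mean in the 4 libraries on the left and above it in the 4 on the right. The MXD3 step is small at its edge (-0.023 in shScr replicate 2, 0.041 in shEN1 #1 replicate 1). MXD3 has a smaller span than MXD4 (2.1-fold against 4.70-fold), and MAX stays near 0. MYC and MXD1 go opposite ways in shEN1 #2 replicate 1 and shScr replicate 4.

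The 5 genes nearest to MXD4 by this measure were ABCB1, which encodes the drug efflux pump P-glycoprotein, CRACD, FAXC, GRIP1 and LMLN. ABCB1, at 0.237, was at 0.964, 1.19, 3.79 and 5.23 CPM in shScr replicates 1 to 4, at 2.88 and 0.971 CPM in shEN1 #1 replicates 1 and 2, and at 5.76 and 0.83 CPM in shEN1 #2 replicates 1 and 2. Nearest to the mirror image of MXD4 were MMRN2, PLXNA2, AREG, FA2H and TMC5. AREG, the epidermal growth factor receptor ligand amphiregulin, was at 31.2, 18.3, 9.09 and 8.73 CPM in shScr replicates 1 to 4, at 12.8 and 28.0 CPM in shEN1 #1 replicates 1 and 2, and at 9.60 and 24.0 CPM in shEN1 #2 replicates 1 and 2. For MYC, whose own root mean square was 0.254, the nearest genes were ZNF384, ODC1, PLP2, PITHD1 and UBAP2L, from 0.0484 to 0.0782. ODC1, the ornithine decarboxylase of polyamine synthesis and a long-known MYC target, was at 165 and 171 CPM in the 2 libraries that stood apart and at 216 to 285 CPM in the others. ODC1 was named for its likeness to MYC. The MYC-induced targets SRM (182 and 189 CPM, others 142 to 211) and TERT (3.73 and 3.90 CPM, others 1.54 to 3.94) were not lower in those 2 libraries. SRM and TERT were named for their fold changes between labels, and the other listed targets were not read in this way. The 5 genes nearest to the mirror image of MYC were SNX30, KIAA1191, RCOR3, SLC25A4 and PTTG1IP, but 0 of these 5 were among the nearest when only library size was used for scaling, against 5 of 5 for the genes nearest to MYC.

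The 4 related repressors MXD1, MXD3, MXD4 and MXI1 were then summed. Their summed level was 33.4, 41.7, 70.9 and 75.6 CPM in shScr replicates 1 to 4, 48.8 and 33.9 CPM in shEN1 #1 replicates 1 and 2, and 69.2 and 34.1 CPM in shEN1 #2 replicates 1 and 2. Without MXD4 the sum kept between 24.9 and 39.7 CPM. Per canonical transcript length, MXD4 made up 13.8, 11.4, 29.2 and 26.7% of the 4 genes in shScr replicates 1 to 4, 24.1 and 11.9% in shEN1 #1 replicates 1 and 2, and 26.8 and 11.7% in shEN1 #2 replicates 1 and 2. MXD3 had the largest share by this measure in every library, at 61.2 to 72.1%. By the length of all annotated exons, the MXD4 share was 18.6 to 45.6% and the MXD3 share 36.5 to 47.4%. MXD4 then exceeded MXD3 in 3 of the 8 libraries, shScr replicate 3 (45.6 against 39.3%), shScr replicate 4 (40.8 against 38.3%) and shEN1 #2 replicate 1 (40.1 against 36.5%), so the order of the 2 rests on the transcript model there.

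The 2 hairpins were also compared one at a time, and both contrasts use the same shScr libraries. For MXD4 the log2 fold change was -0.58 ± 0.83 (SE) with shEN1 #1 and -0.19 ± 0.82 with shEN1 #2. For MYC it was 0.23 ± 0.20 and -0.16 ± 0.20, and the difference between the hairpins, -0.39 ± 0.23, had an unadjusted p of 0.128 and an edgeR adjusted p of 1.00. MYCL differed most, by 2.93 ± 1.02 (log2, SE) between shEN1 #2 and shEN1 #1, with an unadjusted p of 0.0175 and an edgeR adjusted p of 1.00. Called members numbered 0 of 10 in each of the 3 contrasts, where 0% of all genes were called by edgeR. At an unadjusted p below 0.05 there was 1 member for shEN1 #1 (0.656% of genes), 0 for shEN1 #2 (0.3% of genes) and 1 for shEN1 #2 against shEN1 #1 (1.07% of genes), MYCL both times. DESeq2 and limma-voom called 0 members in these contrasts, where DESeq2 called 3 genes for shEN1 #1 (0.0209% of those it tested) and 0% for the other contrasts, and limma-voom called 0 genes.

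**Figure D5:**
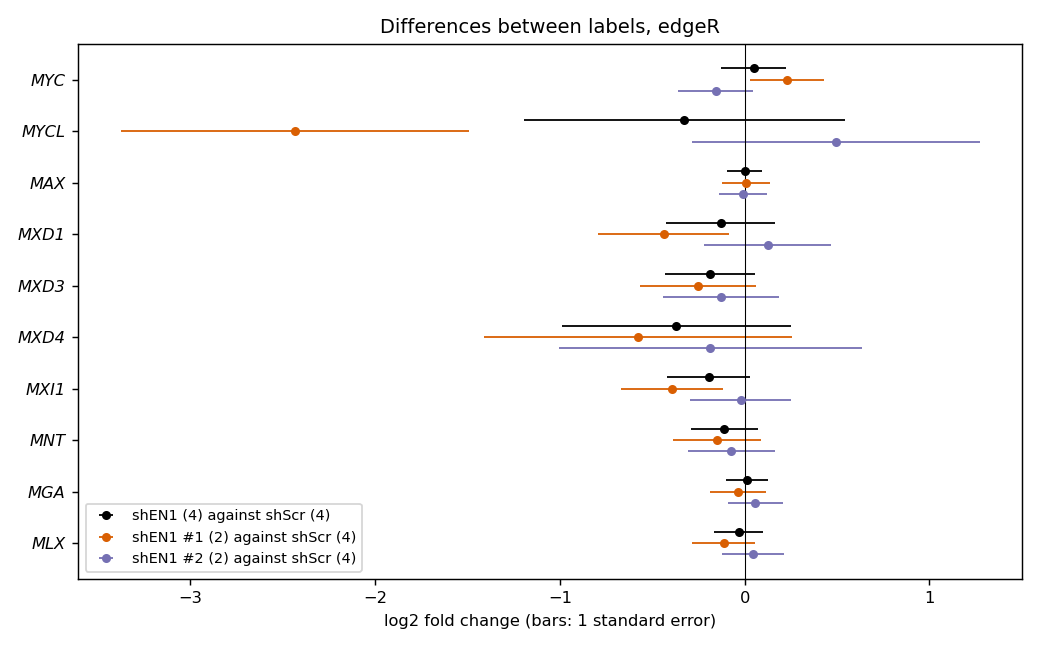
Log2 fold change of each member against shScr with 1 standard error, for the pooled shEN1 label (black), shEN1 #1 (orange) and shEN1 #2 (purple), which share the 4 shScr libraries. All 10 pooled values lie within 1 standard error of 0, and MYCL with shEN1 #1 (-2.43) lies farthest out on the fewest counts.

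Partners and targets of the network were read from 7 lists of 126 genes in all, of which 120 were tested. Between the pooled labels 72 were higher and 48 lower, 0 were called by edgeR, DESeq2 or limma-voom, and 0 had an edgeR unadjusted p below 0.05. The share of higher genes was 60%, against 48.88% of all tested genes, and this difference was not tested. The median log2 fold change of the 120 genes was 0.024, against -0.0028 for all tested genes. The 16 SIN3 and histone deacetylase corepressor genes, which MXD proteins recruit, had a median of -0.012 (6 higher, 10 lower), with ARID4A highest (0.096 ± 0.20 SE) and BRMS1 lowest (-0.072 ± 0.10 SE). The 18 MYC coactivators and cofactors had a median of 0.051 (12 higher, 6 lower), from KAT5, a histone acetyltransferase (-0.13 ± 0.14 SE), to CREBBP, another (0.098 ± 0.20 SE). Genes of MYC protein turnover, 19 in all, had a median of 0.027 (13 higher, 6 lower), from the ubiquitin ligase STUB1 (-0.11 ± 0.17 SE) to the F-box gene FBXO32 (0.31 ± 0.37 SE). Polycomb partners of MGA (13 tested) had a median of 0.026 (9 higher, 4 lower), from TFDP2 (-0.078 ± 0.31 SE) to RYBP (0.20 ± 0.13 SE). Of 8 tested E-box binding partners outside the network, 4 were higher and 4 lower, from TFEB, a regulator of lysosomal genes (-0.37 ± 0.39 SE), to MITF (0.18 ± 0.52 SE).

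Target genes were not called between the labels either. Of 32 tested MYC-induced targets 22 were higher and 10 lower, with a median log2 fold change of 0.026, from the telomerase gene TERT (-0.16 ± 0.31 SE) to the spermidine synthase gene SRM (0.22 ± 0.12 SE). That was 68.75% higher, against 48.88% of all tested genes, and a shift of the list was not tested. Of 15 tested MYC-repressed targets 7 were higher and 8 lower, with a median of -0.016, from GADD45G (-0.45 ± 0.40 SE) to NDRG1 (0.21 ± 0.48 SE). The lists differed in their spread over the libraries. The median standard deviation of log2 CPM was 0.135 for the corepressor genes, 0.237 for the MYC-induced and 0.506 for the MYC-repressed targets, against 0.263 for all genes, and 13 of 15 repressed targets exceeded that median. NDRG1, the repressed target with the widest range, was at 48.1, 32.4, 37.1 and 13.4 CPM in shScr replicates 1 to 4, at 47.3 and 56.4 CPM in shEN1 #1 replicates 1 and 2, and at 11.7 and 35.7 CPM in shEN1 #2 replicates 1 and 2. Its low libraries were the 2 that stood apart, the ones with the lowest MYC. Among the other genes with the widest range in a list, the same 2 libraries lay above the other 6 for SKP2 (34.5 and 36.2 CPM, others 14.8 to 29.6), TFDP2 (52.1 and 53.5 CPM, others 21.4 to 31.8) and MITF (3.26 and 3.38 CPM, others 0.803 to 1.79). FBXO32 was close to a tie, at 1.495 and 1.498 CPM against a lowest value of 1.59 CPM elsewhere, and for TERT the 2 libraries lay within the range of the others. Choosing genes by their range favors those that are extreme in libraries standing apart, so their place there is no separate result. Among the members, 3 of 10 had both libraries beyond the other 6, MYC below and MYCL and MXD1 above, where 38.1% of all tested genes did, so the share among members was near that of all genes.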

How the data were processed

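RNA-seq read counts of 8 SUIT2 libraries were analysed, grouped by their labels. The count files hold whole-number counts per NCBI gene number that the authors deposited after alignment with HISAT2 and counting with featureCounts (the submitters' processing notes). Those notes name mm9 as a build, whereas the study's methods give hg19 for human reads. Tool versions, annotation and strand setting were not given in the sources used here, so genes with overlapping exons could share reads. No deposited count was normalized.

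Of 25702 gene numbers, 23696 matched a RefSeq symbol. Gene positions and lengths came from GENCODE lifted to GRCh37, which is hg19. RefSeq promoters were of GRCh38.p14, used for sequence only. Totals of 33423590 to 37810604 counts make counting error small beside the level for all members but MYCL.

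Genes were kept by filterByExpr (minimum count 10, 14333 genes), scaled by TMM, and tested with edgeR 4.0.16 (R 4.3.3, glmQLFit and glmQLFTest) over all libraries, with Benjamini-Hochberg adjustment over all genes tested and a threshold of 0.05. The single hairpins were tested in a fit with 3 groups that share 1 estimate of the spread. Profiles used log2 CPM with a prior count of 2. Alternatives were DESeq2 1.42.0, limma-voom (limma 3.58.1), other scaling, no filter, and libraries left out. The members, the 7 lists and the libraries named as standing apart were chosen with earlier results of these data known. Named genes were all members, EN1, the 5 genes nearest to MXD4 and to MYC and the 5 nearest to their mirror images, and in each list the genes with the highest and lowest fold change and the widest range; 1 gene that this rule names is not reported here. The murine libraries were not analysed here.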

Additional observations from a re-analysis of the deposited data

Results flagged for a closer look

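In the 4 libraries labelled shEN1, MLX stood out in 1 of them: shEN1 #1 replicate 1 was at 53.0 CPM and the other 3 were at 64.4 to 66.5 CPM. Its gap to the nearest library was 0.846 of the whole range, above Dixon's critical value for 4 samples. Of 20 groups of 4 libraries examined in this way, chance gives about 1 such value. In shScr replicate 3 MLX was at 53.1 CPM.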

How the results depend on the processing

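The count of called members and of called pathway genes was 0 in every setting run, while the genes called between the pooled labels numbered 0 to 2. The sign of small fold changes moved. Leaving out each library in turn gave log2 fold changes between shEN1 and shScr of -0.074 to 0.16 for MYC, -1.11 to 0.57 for MYCL, -0.020 to 0.040 for MAX, -0.47 to 0.030 for MXD1, -0.21 to 0.039 for MNT, -0.037 to 0.087 for MGA and -0.11 to 0.068 for MLX. The ranges of MXD3 (-0.36 to -0.049), MXD4 (-0.82 to -0.021) and MXI1 (-0.33 to -0.055) kept their sign. With both libraries that stood apart left out, MAX was at -0.013 and MGA at -0.025. With only shScr replicates 1 and 2 and the replicate 2 of each hairpin, MYCL was at 0.42, MAX at -0.029 and MNT at 0.10. By library size only, MAX was at -0.00054, and 0 of the 5 genes nearest to the mirror image of MYC remained. Same-numbered libraries share a number, and the labels do not say whether they share more. Their deviations from the group means had r from -0.332 to 0.437 over 6 pairs. These pairs are not independent, since the 2 libraries of a hairpin have opposite deviations, so they cannot settle whether libraries were paired. A fit with the replicate block, on replicate numbers 1 and 2 only, gave -0.046 for MYC, 0.85 for MYCL, -0.025 for MAX, 0.20 for MXD3, 0.63 for MXD4, 0.013 for MNT and -0.043 for MGA, with 1 gene called, no member. It leaves out 2 shScr libraries, shScr replicate 3 and replicate 4, which had the highest MXD4. MYCL, with 4 to 125 counts a library, was the member most limited by depth.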
